A study of Mus musculus with 3 samples.

Results

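Small RNA libraries are made to catch microRNAs (miRNAs), but they also hold short pieces of other RNAs, messenger RNA among them. The inserts described here are the sequenced pieces of 18 to 25 nt that have exactly 1 exact match in the mouse genome, inside an exon of a nuclear protein-coding gene and on the strand of its mRNA. Inserts inside a miRNA, rRNA, snoRNA, snRNA or misc_RNA gene were left out, and so was Srf, the siRNA target. The rule left 11486 distinct inserts of 1738385, with 12874 reads. They fell in 6119 of 22380 annotated protein-coding genes, after 83 inserts that lie in exons of several genes were set aside.

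The libraries come from HL-1, a line of beating mouse cardiomyocytes that descends from an atrial tumour. Cells received siRNA (9 µl of a 20 µM stock) and were harvested 48 h later, and each group has 1 library. The libraries whose titles read siSrf1 and siSrf2 were used, and the one titled siNon is not analysed here. In the siRNA entry the sample titled siSrf1 reads Srf si2 and the sample titled siSrf2 reads siNon, so every direction refers to the label in the title. The Srf inserts left out had 20 reads in the siSrf1-labelled library and 1053 in the siSrf2-labelled library. No library titled as a control was compared, and the labels do not settle whether the siSrf2-labelled library is one. Nothing says that the libraries are more than 1 culture each, so intervals cover counting error only and no test of the conditions was possible.

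An mRNA has a capped 5' untranslated region (5' UTR), a coding sequence (CDS) that ribosomes read, and a 3' untranslated region (3' UTR) where miRNAs usually bind. Fragments of mRNA arise by decay in the cell or by breakage during preparation, and their lengths vary. Cleavage by Dicer, in contrast, gives miRNAs of about the same length that often begin with U (T in the sequenced DNA).

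Sequences of 3 kinds among the most-read inserts are shown, 5' to 3', with coordinates in NCBIM37, and those of Oprm1, described with its values, are of another kind. The first kind differs at 1 base from a far more frequent sequence. The capital marks that base, and in a token such as A7G the base of the exon insert comes first, then its position counted from 1 at the insert's 5' end, then the base of the frequent sequence.
Gys1: atccccAgcatctccacca
Slc29a3: tccccgCcatctccacca
Gss: ggggatgtagctcagtggGaga
Ano3: ggggatgtagctcagtggtagTg
ORF19: atcccaccgctgccaccC

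The second kind is a set of overlapping inserts in the 3' UTR of Lars2, shown by the most-read insert of each of its 3 windows.
Lars2 window 1: gcgttcatagcgacgtcg
Lars2 window 2: gggattagaccgtcgtga
Lars2 window 3: cagtacgagaggaaccgca

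The third kind has no far more frequent neighbour at 1 mismatch, and each sequence shown is the most-read insert of its gene or, for Zc3hav1, 1 of a pair with equal reads.
Tead2 5' UTR: taggaaggcgccggcgggaat
Fam124a 5' UTR: cccggggccgagggagcg
Dnmt3a 3' UTR: ctacaaggtcttcaggaactgt
Zc3hav1 3' UTR: cttgggagaaaggaactggaag

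The exon inserts took a larger share of the siSrf2-labelled library. They had 4123 reads of 7748874 inserts of 18 to 25 nt in the siSrf1-labelled library, a share of 0.0532% (exact Clopper-Pearson 95% interval 0.0516 to 0.0549). In the siSrf2-labelled library they had 8751 reads of 7013026, or 0.125% (0.122 to 0.127). The ratio of these shares, siSrf2 over siSrf1, was 2.35 (exact binomial interval 2.26 to 2.43). Of all distinct inserts, 11100 (96.6%) had 1 read over both libraries. With these left out, the ratio of the remaining inserts was 1.29. An insert with 1 read cannot occur in both libraries. Those in both numbered 184, 5.19% of the distinct exon inserts in the siSrf1-labelled library and 2.27% of those in the siSrf2-labelled library. The same share over all inserts of 18 to 25 nt was not counted, so whether this overlap is a trait of the exon inserts cannot be said.

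Several other classes were also higher in the siSrf2-labelled library, though not all. Inserts antisense to the same exons had 882 and 2225 reads, a ratio of 2.79 (2.58 to 3.02). Sense intron inserts gave 2.87 (2.80 to 2.94) and intergenic inserts 1.88 (1.86 to 1.90). Apart from Srf, mitochondrial inserts had the highest ratio of the classes compared, 4.35 (4.22 to 4.48), while miRNA hairpin inserts stood at 0.943 and rRNA inserts at 0.926. The part that this general difference between the libraries has in any exon ratio was not tested.

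**Figure D1:**
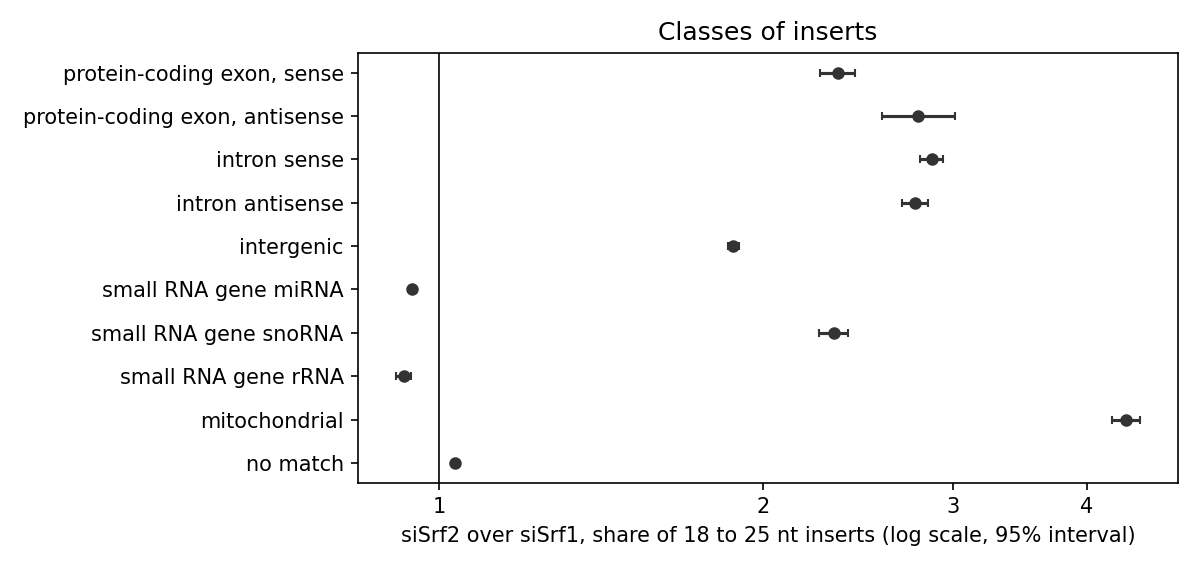
Ratio of the share of 18 to 25 nt inserts in the siSrf2-labelled library over that in the siSrf1-labelled library, for classes of inserts, on a log axis; bars are 95% intervals for counting error. Exon inserts in sense sit at 2.35, between intergenic inserts (1.88) and intron inserts in sense (2.87), while miRNA hairpins and rRNA lie just under 1.

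The rule took sense inserts of 18 to 25 nt, but it used neither the antisense level, nor the profile within these lengths, nor the first base. Sense inserts made up 82.4% (81.3 to 83.4) of single-match inserts in protein-coding exons in the siSrf1-labelled library and 79.7% (79.0 to 80.5) in the siSrf2-labelled library. Antisense inserts give the level that matches unrelated to the mRNA could reach, together with any true antisense RNA. The sense share was lower at the shortest lengths, though it did not rise at each step. At 18 nt it was 75.1% and 74.8% in the libraries labelled siSrf1 and siSrf2, at 19 nt 81.1% and 73.9%, at 22 nt 89.1% and 85.95%, at 24 nt 94.0% and 89.2%, and at 25 nt 89.5% and 84.7%. How many of the short inserts match an exon by chance was not tested.

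Reads became fewer with length and showed no peak at the miRNA length. At 18 nt there were 1206 and 2238 reads, at 22 nt 451 and 985, and at 25 nt 77 and 244. Inserts of 22 nt made up 10.9% and 11.3% of the exon inserts, against 83.8% and 80.9% of the miRNA hairpin inserts. A first T was found in 20.8% and 21.2%, against 93.3% and 91.7% for the hairpins. The most common first base of the exon inserts was A, with 33.5% and 33.7%, while antisense inserts began with A in 19.8% and 18.5%. The ratio of the libraries was 2.05 (1.91 to 2.20) at 18 nt and 3.58 (3.01 to 4.27) at 24 nt, so longer exon inserts differed more between the libraries.

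**Figure D2:**
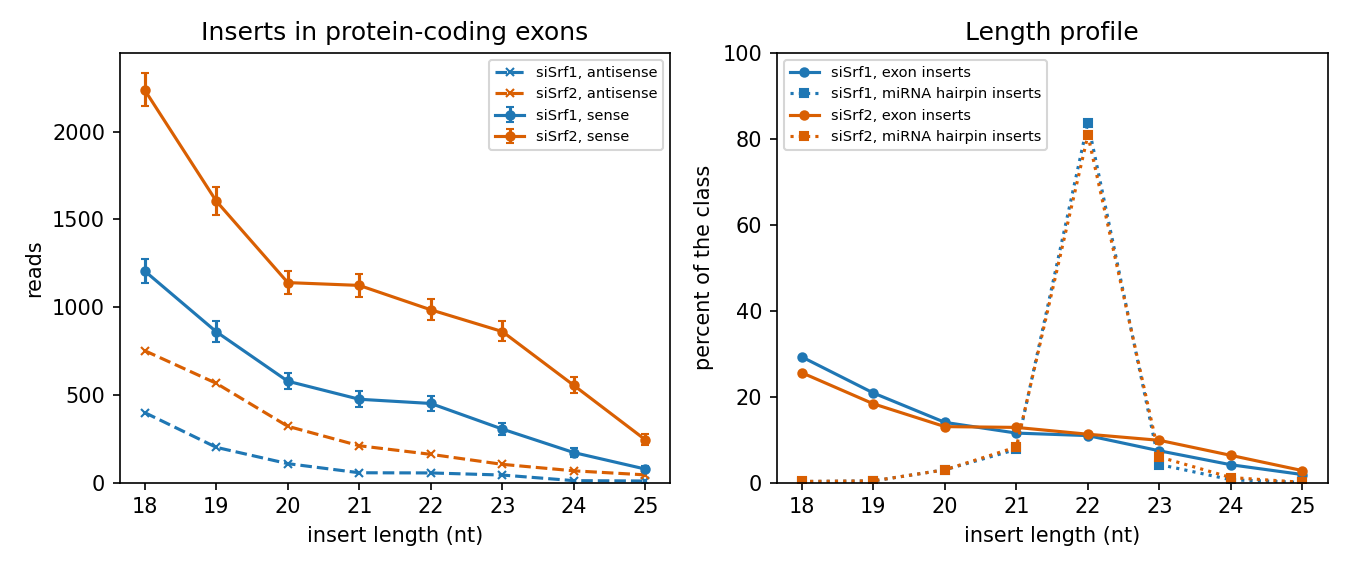
Left, reads of exon inserts by insert length (nt) for the libraries labelled siSrf1 and siSrf2, sense with exact 95% Poisson bars and antisense as dashed lines; right, the length profile in percent of the exon inserts and of the miRNA hairpin inserts. Exon inserts fall from 18 nt on, and hairpin inserts peak at 22 nt with 83.8% and 80.9%.

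Coding sequence held the most exon reads, and 5' UTRs held the most for their length. The CDS had 2006 and 4201 reads, the 3' UTRs 1104 and 2012, and the 5' UTRs 846 and 2102. A further 167 and 436 reads lay in exons of transcripts with no coding sequence. In the siSrf1-labelled library the 5' UTRs held 20.5% (19.3 to 21.8) of the exon reads, and in the siSrf2-labelled library 24.02% (23.1 to 24.9), while they make up 7.43% of the annotated exon length. The 3' UTRs held 26.8% (25.4 to 28.2) and 23.0% (22.1 to 23.9) on 34.2% of the length. Lars2 alone supplied 348 and 244 of the 3' UTR reads. The share of each library without it is not given here, so the difference between these shares may rest on that gene.

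Per megabase of annotated sequence the 5' UTRs had 147 and 364 reads, the CDS 55.9 and 117, and the 3' UTRs 41.6 and 75.9. The antisense level in the same regions was 20.3 and 61.9 reads per Mb in 5' UTRs, 14.5 and 32.4 in the CDS, and 6.22 and 19.3 in 3' UTRs. The order of 5' UTR, CDS and 3' UTR per Mb was thus the same in both libraries and on both strands. Exons of transcripts with no coding sequence had 17.6 and 46.1 sense reads per Mb, under the 3' UTRs. Their antisense level, 8.35 and 20.4, was above that of the 3' UTRs. The ratio of the libraries was 2.75 (2.53 to 2.98) for 5' UTRs, 2.31 (2.19 to 2.44) for the CDS and 2.01 (1.87 to 2.17) for 3' UTRs. The intervals of the 5' UTR and the CDS do not overlap. The 3' UTR ratio includes Lars2, with 348 and 244 reads there, more in the siSrf1-labelled library. A ratio without that gene is not given here, so the place of the 3' UTRs below the CDS may rest on it.

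Base composition moved with the region. Mean GC content of the inserts was 66.1% and 66.9% in 5' UTRs, 54.4% and 55.5% in the CDS, and 51.5% and 51.6% in 3' UTRs. Inserts under 40% GC had a ratio of 1.86 (1.63 to 2.13), and those of 70% GC or more had 3.06 (2.76 to 3.40). Between these the order was not even, with 2.38 from 40% to 50%, 2.12 from 50% to 60% and 2.49 from 60% to 70%. Whether GC content accounts for the ratio of the 5' UTRs was not tested.

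Along transcripts, with 1 transcript per gene for 16196 transcripts and Lars2 left out, sense reads were densest near the 5' end. Over both libraries, 5' UTR sequence 25 to 50 nt from the transcript start had 1126 sense reads per Mb (exact Poisson interval 1025 to 1234.5). The first 25 nt had 551 (481 to 628), and the stretch from 200 to 400 nt had 315 (281 to 352). Antisense reads stayed between 56.8 and 99.5 per Mb over the same distances. Each region was also divided into 10 equal parts. The first part of the CDS had 323 reads per Mb (302 to 345) and the others 147 to 206, while the parts of the 3' UTRs had 74.3 to 152. Antisense reads in the first part of the CDS, at 62.8 per Mb, were likewise above the 33.1 to 49.8 of the other parts.

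**Figure D3:**
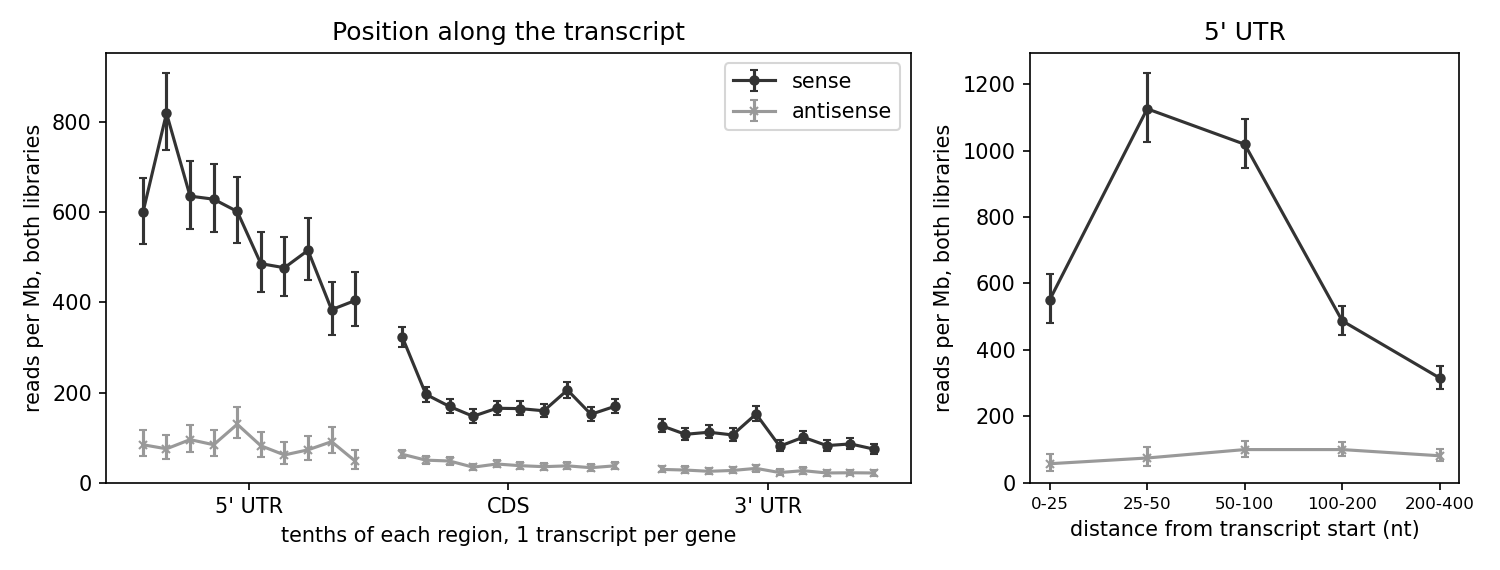
Reads per Mb summed over both libraries, sense and antisense, in 10 equal parts of the 5' UTR, CDS and 3' UTR (left) and by distance in nt from the transcript start (right); bars are exact 95% Poisson intervals. Sense density peaks at 1126 reads per Mb from 25 to 50 nt and declines to 74.3 in the last part of the 3' UTR, while antisense density stays under 130 throughout.

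Inserts across exon junctions, which have no match in the genome and so are no members, gave a readout of spliced mRNA. With at least 6 nt on each side of the junction, 306 distinct inserts in sense matched junctions of 277 genes, with 96 reads (77.8 to 117) in the siSrf1-labelled library and 215 (187 to 246) in the siSrf2-labelled library. Antisense junction inserts numbered 5, with 6 and 3 reads. The gene with most such inserts was Ttn, the giant spring protein of the sarcomere, with 3 reads in each library. A stack of 2350 reads at Ntrk2 was left out because sequences similar to its inserts had up to 62505 reads together.

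Within the CDS, insert starts were spread over the 3 codon positions with a small excess at the middle one. Of 1826 distinct CDS inserts in the siSrf1-labelled library, 37.7% (35.4 to 39.9) began at the middle base of a codon, 32.1% at the first and 30.2% at the last. Of 3862 in the siSrf2-labelled library the shares were 37.9% (36.4 to 39.5), 31.4% and 30.7%. CDS inserts began with A in 37.7% and 38.8% of reads, and the part of base composition in the codon position was not tested.

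Reads per gene were few. Of the 6119 genes, 3585 (58.6%) had 1 read over both libraries, 347 had 5 or more, 59 had 10 or more and 19 had 20 or more. Only these 19 were compared between the libraries. After scaling to inserts of 18 to 25 nt, a gene was called at a difference of 2-fold or more whose whole 95% interval lay on 1 side of 0. By that rule 7 of 19 (36.8%) were higher in the siSrf2-labelled library and 0 of 19 (0.0%) in the siSrf1-labelled library. For comparison, 48 of 199 miRNA hairpins (24.1%) were higher in the siSrf2-labelled library and 2 (1.01%) in the siSrf1-labelled library. The 19 genes had a median log2 ratio, siSrf2 minus siSrf1, of 0.44, with 12 above and 7 below 0, against 1.23 for the summed exon inserts and 0.34 for the median hairpin.

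The calls rest on the scaling. With the reads scaled to the exon inserts themselves, which shifts the log2 ratio of the genes by -1.23, 1 gene was higher in the siSrf2-labelled library and 8 in the siSrf1-labelled library. With TMM factors, which shift it by -0.59, the counts were 1 and 3. Each "called" in the sentences that follow therefore refers to scaling by all inserts of 18 to 25 nt.

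**Figure D4:**
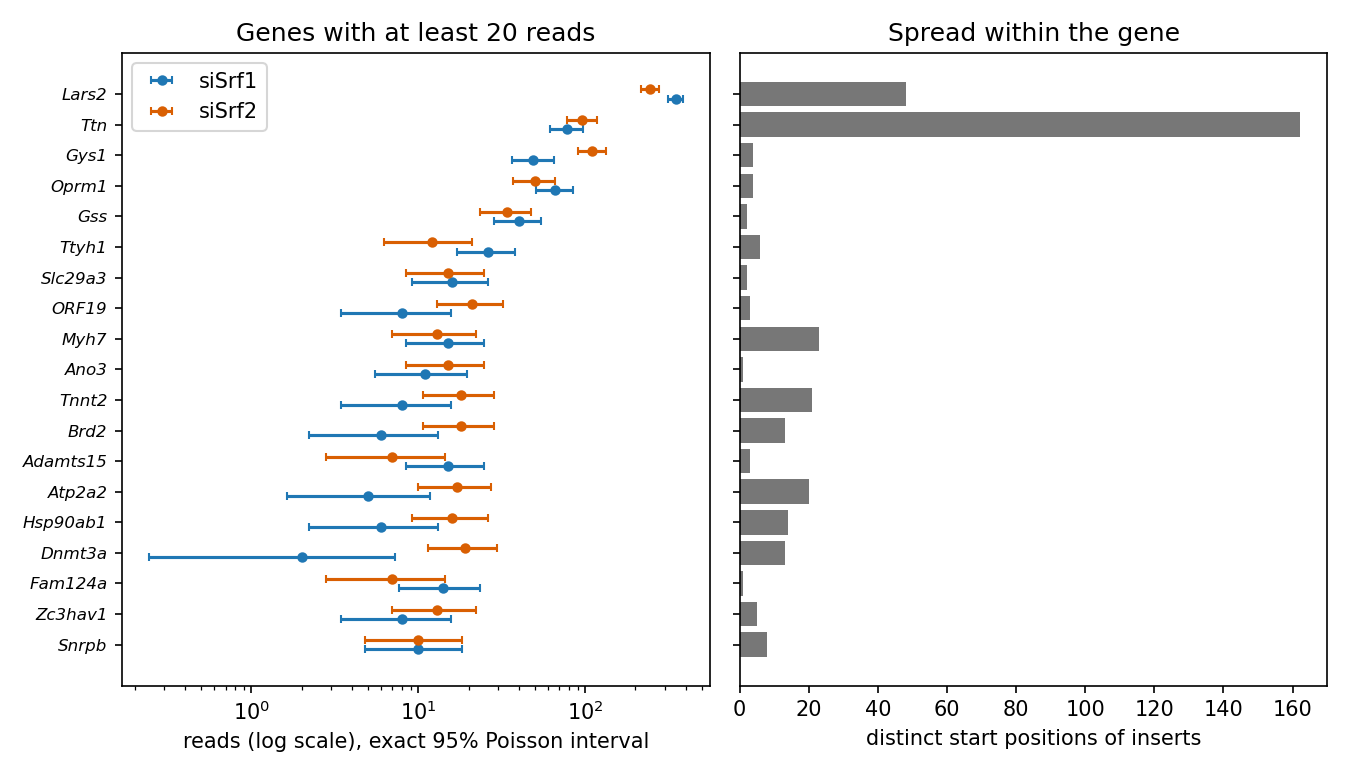
Left, reads of the 19 genes with at least 20 reads in the libraries labelled siSrf1 and siSrf2 on a log axis, with exact 95% Poisson intervals; right, the number of distinct start positions of their inserts. Lars2 has the most reads (348 and 245) and Ttn the most starts (162), while Gys1, Gss and Ano3 rest on 1 to 4 starts.

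Lars2 encodes the leucyl-tRNA synthetase of mitochondria and had the most reads of any gene, 348 in the siSrf1-labelled library and 245 in the siSrf2-labelled library. It was slightly lower in the latter, with a log2 ratio of -0.36 (-0.60 to -0.12), and was not called. Of its 593 reads, 592 lay in the 3' UTR, in exon 21 on the plus strand, and nearly all in 3 windows. Window 1 at chr9:123371084-123371127 had 45 and 32 reads, window 2 at chr9:123371194-123371238 had 115 and 80, and window 3 at chr9:123371280-123371305 had 187 and 131. Each window was higher in the siSrf1-labelled library. As background, the letters of window 3 are those of the sarcin-ricin loop, a conserved stretch of the large ribosomal RNA. The genome sequence searched need not hold the rRNA repeat units, so a match to Lars2 alone does not place these reads in its mRNA. Whether the reads come from rRNA was not tested.

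Gys1, the muscle form of glycogen synthase, was read 49 and 110 times and was called, with a log2 ratio of 1.30 (0.81 to 1.83). The insert shown above, at chr7:52706953-52706971 in CDS exon 13 of 16, held 48 and 102 of these reads. A sequence that differs from it by A7G was read 684 and 1076 times, or 11.7 times as often. Here and below, reads of such a frequent neighbour include longer inserts that begin with it, while genome matches are those of the neighbour itself. Slc29a3, a nucleoside transporter of lysosomes and mitochondria, had 16 and 15 reads. Its most-read insert, at chr10:60179027-60179044 in the CDS, had 11 reads in each library, and its neighbour by C7G had 2911 and 4120. Both inserts end in the letters cca, which mature tRNAs carry at their 3' end.

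Gss encodes glutathione synthetase and had 40 and 34 reads. The insert at chr2:155417821-155417842 (minus strand, 5' UTR, exon 1) held 38 and 33 of them, and its neighbour by G19T was read 5637 and 4575 times and has 51 genome matches. Ano3, a membrane protein of the anoctamin family, had 11 and 15 reads in 1 insert of its 3' UTR at chr2:110496364-110496386. Its neighbour by T22A was read 3078 and 2612 times and has 35 genome matches. The Ano3 neighbour begins with the Gss neighbour, so its reads are also part of those counted for the Gss neighbour. The letters of both inserts open as alanine tRNAs do, from general knowledge, and tRNA genes were not searched here. ORF19 was called (8 and 21 reads, log2 1.48, 0.30 to 2.92), and its main insert at chr17:66468411-66468428 had 8 and 19 reads beside a neighbour by C18A read 823 and 1358 times with 0 genome matches.

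Inserts within 1 mismatch of an annotated small RNA gene or of a sequence at least 20 times as frequent held 4.22% (3.63 to 4.88) of the exon reads in the siSrf1-labelled library and 2.13% (1.83 to 2.45) in the siSrf2-labelled library. The main Gys1 insert, at 11.7 times, is outside this rule. At 10 times, with inserts that are the start of such a sequence included, the shares were 5.70% (5.01 to 6.45) and 3.37% (3.00 to 3.77). Leaving those inserts out left Gys1 with 2 reads, under the minimum for a call. A further genome match at 1 mismatch, at any frequency, was found for inserts with 47.0% (46.2 to 47.9) of the exon reads over both libraries. Oprm1, which encodes the mu opioid receptor of neurons, had 66 and 50 reads from 4 starts in its 3' UTR, and its most-read inserts are 1 mismatch away from the mitochondrial genome. Whether sequencing errors or editing of the frequent sequences gave the reads in these genes was not tested.

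Some stacks had no such neighbour, though tRNA genes and rRNA repeat units were not searched. Tead2, a transcription factor of the Hippo pathway, had 2 and 14 reads, 12 of them from 1 insert at chr7:52471204-52471224 in 5' UTR exon 1 (2 and 10 reads). With 16 reads it was under the minimum for a call. Fam124a had 14 and 7 reads, all in 1 insert at chr14:63174655-63174672 in 5' UTR exon 1, with a log2 ratio of -0.81 (-2.41 to 0.55). Zc3hav1, an antiviral RNA-binding protein, had 8 and 13 reads in its 3' UTR, from 5 starts. The insert shown lies at chr6:38256706-38256727 on the minus strand and had 3 and 5 reads, and an insert with the same 5' base that is 1 nt longer had 2 and 6. The remaining genes with 20 reads or more, Ttyh1 (26 and 12), Adamts15 (15 and 7) and Snrpb (10 and 10), were not called. The most-read inserts of Ttyh1 had 17 to 20 further genome matches at 1 mismatch.

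Dnmt3a, a de novo DNA methyltransferase, had the largest ratio of the 19 genes, with 2 reads in the siSrf1-labelled library and 19 in the siSrf2-labelled library. Its log2 ratio was 3.11 (1.34 to 6.54), and it was the gene still called with TMM factors (2.52, 0.75 to 5.95) and scaled to the exon inserts (1.88, 0.11 to 5.31). Of its 21 reads, 17 lay in the 3' UTR, 8 of them in the insert at chr12:3911927-3911948, and its reads came from 13 starts. Brd2, a reader of acetylated histones, had 6 and 18 reads from 13 starts, 22 of them in the 5' UTR, and a log2 ratio of 1.65 (0.33 to 3.35).

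Other genes had reads spread over many starts, several contractile genes among them. This spread was not particular to contractile genes, as Arhgef12 had 16 reads from 16 starts and Macf1 15 from 15. Ttn had 78 and 96 reads from 162 starts, 166 of them in the CDS, and 1.49 reads per kb of exon. Its log2 ratio was 0.44 (-0.003 to 0.89), which was not called, and was -0.15 with TMM factors and -0.79 scaled to the exon inserts. Myh7, the slow myosin heavy chain, had 15 and 13 reads from 23 starts, and Myh6, the fast atrial heavy chain, had 8 and 8 from 15. Raw counts of both heavy chains were thus similar in the libraries, while parts that are the same in both genes match the genome more than 1 time and are left out by the rule.

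Tnnt2, cardiac troponin T, had 8 and 18 reads, all in the CDS, from 21 starts, and was called with a log2 ratio of 1.27 (0.04 to 2.72). It had 23.5 reads per kb, the most of the contractile genes described here. Tpm1, a tropomyosin, had 6 and 13 reads from 17 starts, and Des, the intermediate filament desmin, had 8 and 8 from 16. Over all protein-coding exons the mean was 0.165 reads per kb, and the median of genes with reads was 0.352.

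Summed over the sarcomere list, 25 of 27 genes had reads, with 154 in the siSrf1-labelled library and 194 in the siSrf2-labelled library, at 1.38 reads per kb. The ratio was 1.39 (1.12 to 1.73), under the 2.35 of all exon inserts, and 1.42 (1.05 to 1.95) without Ttn. Of the list's members, 3 had 20 reads or more and 1 of these was called, Tnnt2, beside 36.8% of all 19 genes compared. Myom2 was at 0, and so was Tnnc1, whose 10 inserts (7 and 3 reads) lie in 2 gene entries at the same place and were assigned to neither.

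Calcium handling genes had 16 and 39 reads in 9 of 12 members, a ratio of 2.69 (1.47 to 5.16). Atp2a2, the pump that returns calcium to the sarcoplasmic reticulum, supplied 5 and 17 of these from 20 starts and was called with a log2 ratio of 1.81 (0.41 to 3.70). Ryr2, the calcium release channel, had 4 and 6 reads. Of the cardiac hormone and transcription factor list 8 of 12 had reads, 3 and 16 in all, among them Hand2 (2 and 4), Tbx20 (0 and 4), Myocd (0 and 3) and Nkx2-5 (0 and 2). None of these transcription factors had enough reads for a comparison.

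The list of published targets of SRF, the factor encoded by Srf, had 23 and 61 reads in 19 of 21 genes, at 1.09 reads per kb. Its ratio of 2.93 (1.79 to 4.96) overlaps that of all exon inserts. Smooth muscle actin Acta2 had 5 and 9 reads, 8 of the 14 in 1 insert, cytoplasmic actin Actb 4 and 7, the early response factor Fos 3 and 5 and the actin crosslinker Flna 3 and 5. No gene of the list had 20 reads, so none was compared.

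Housekeeping lists had ratios with wide intervals. Ribosomal protein genes had 18 and 55 reads in 29 of 83 genes, a ratio of 3.38 (1.95 to 6.11). Translation factors had 38 and 75 in 40 of 66, a ratio of 2.18 (1.46 to 3.31), with Eef2, which moves the ribosome along, at 6 and 2. Nuclear-encoded respiratory chain genes had 28 and 83 reads in 45 of 92, a ratio of 3.28 (2.11 to 5.22). Cox4i1, a subunit of cytochrome c oxidase, had 1 and 9 reads, and Atp5b, a subunit of ATP synthase, had 1 and 5. All 3 intervals overlap that of the exon inserts as a whole.

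Chaperone genes had 14 and 36 reads in 8 of 11, and Hsp90ab1, an abundant cytosolic chaperone, supplied 6 and 16 of them from 14 starts and was called with a log2 ratio of 1.49 (0.13 to 3.20). Leaving out its inserts with a further genome match at 1 mismatch left 4 reads and a log2 ratio of 0.14. The glucose and glycogen list had 56 and 122 reads in 11 of 18 genes, but 7 and 12 without Gys1. Extracellular matrix genes had 3 and 19 reads in 6 of 11 genes, a ratio of 6.998 (2.06 to 36.9), Col4a1, a basement membrane collagen, at 0 and 9. The tubulin and lamin list, which also holds the intermediate filament gene Vim, had 0 and 13 reads in 3 of 7 genes. Tubb5 and Vim were at 0 and 6 each, and a count of 0 allows up to 3.69 reads (exact Poisson). The lower limit of that list's ratio was 3.37, above the interval of all exon inserts. Replication-dependent histone genes had 3 and 16 reads in 11 of 67. The rule leaves out any sequence with a copy elsewhere in the genome, and its part in the members at 0, such as Gapdh, Hspa8 and Cfl1, was not tested.

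**Figure D5:**
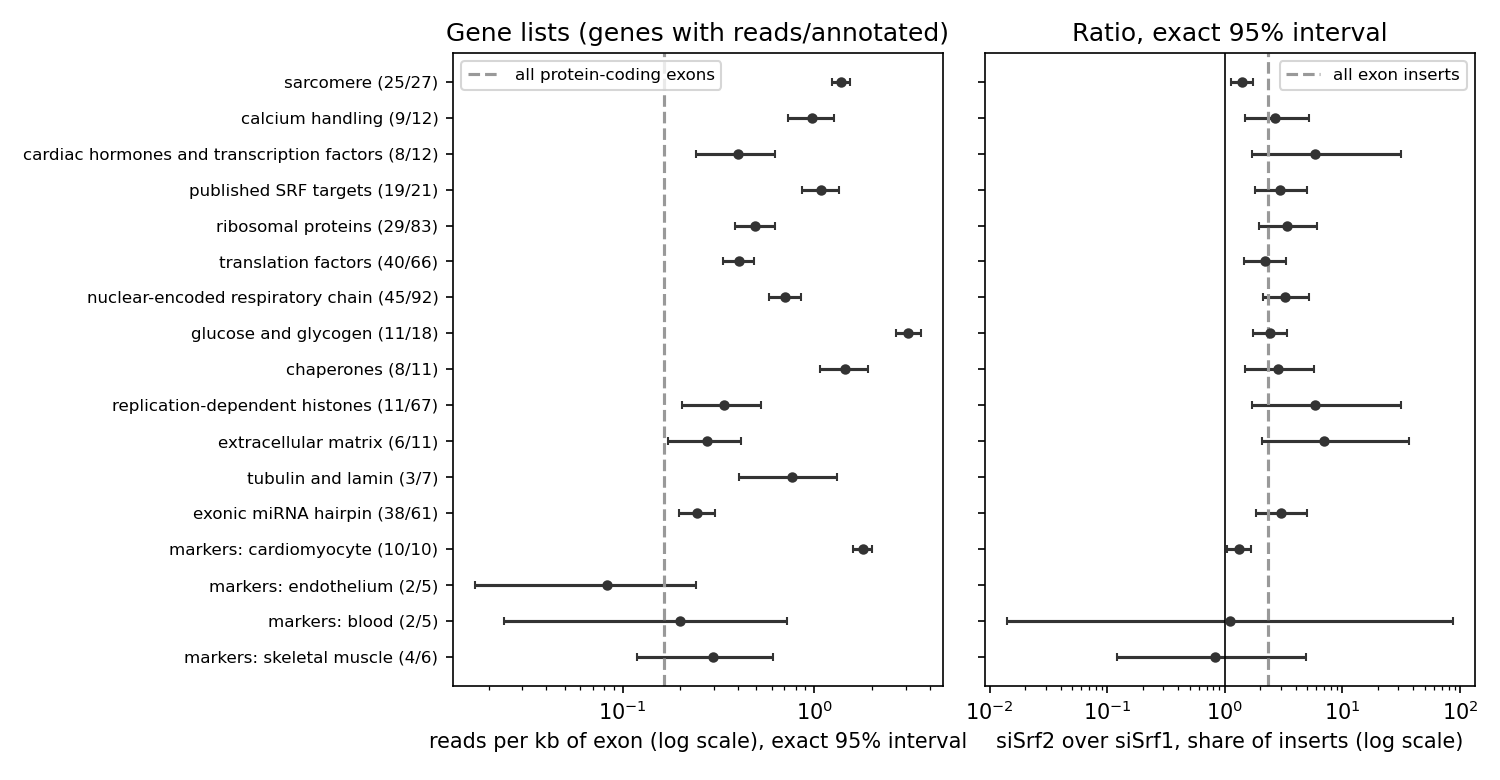
Left, reads per kb of exon over both libraries for gene lists and marker lists, with the number of genes with reads over those annotated, beside the level of all protein-coding exons (dashed, 0.165); right, the ratio of the siSrf2-labelled library over siSrf1 with exact 95% intervals and the ratio of all exon inserts (dashed, 2.35). Lists with reads in 1 library only have no ratio; the sarcomere and cardiomyocyte lists lie at 1.39 and 1.32.

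Cardiomyocyte genes led the cell type markers. All 10 cardiomyocyte markers had reads, 131 and 157, at 1.79 reads per kb. Endothelial markers had 3 and 0 reads in 2 of 5 genes, blood markers 1 and 1 in 2 of 5, and skeletal muscle markers 4 and 3 in 4 of 6, of which Acta1 is also made in the heart. Neuron markers (3 genes annotated) and epithelial markers (4 genes) had 0 reads in both libraries, which allows up to 3.69 reads for each list and library.

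A few exon inserts lie where RefSeq, on GRCm38.p6, names miRNA hairpins that the annotation used here lacks. There were 16 such hairpins with 40 inserts and 52 reads, 0.404% of the exon reads. Of these, 45 reads began at the start of a mature miRNA or at a base next to it. The mature sequences of the 5 with most such reads are shown with the seed, bases 2 to 8, in capitals, and no seed is shared among them.
miR-8112 in Krcc1: uCUCCGCCaccuccaccgca
miR-7084-5p in Elof1: uAGAGGAUagagguagagagu
miR-7653-5p in Tlcd1: uAAGGGGCggacagacagacgg
miR-8114 in Glul: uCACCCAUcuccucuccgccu
miR-6990-5p in Esrra: cCCAGGGUgagucagggcucu

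Reads at these starts or at a base next to them were 2 and 7 for miR-8112, 2 and 5 for miR-7084-5p and 2 and 4 for miR-7653-5p. They were 1 and 4 for miR-8114 and 1 and 3 for miR-6990-5p. A read that begins at a next base would not have the seed shown. All 5 were higher in the siSrf2-labelled library, at counts too low for a comparison. The first 4 lie in 5' UTRs, among them those of Glul, which makes glutamine from glutamate, and Elof1, a transcription elongation factor. At chr6:71221738-71221761 in Krcc1 all 9 reads began at the mature start or a base next to it. The 9 reads at Glul lay between chr1:155747074-155747142, and 5 of them began at or next to the mature start. Protein-coding genes with an annotated exonic hairpin, counted outside the hairpin, had 24 and 65 reads in 38 of 61 genes, a ratio of 2.99 (1.85 to 4.999).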

How the data were processed

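The authors deposited raw read counts for every distinct sequence of a library, 36 nt long, without normalization, per the series' description. The labels' protocols name an Illumina small RNA kit and the Genome Analyzer. The aligner and genome build they used were not given in the sources used here.

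The 3' adapter was found by its first 8 nt, or by at least 4 nt at the read end. Of 14911499 and 14518157 reads, 7748874 and 7013026 had an insert of 18 to 25 nt. Inserts were matched without mismatch to NCBIM37 and annotated with GENCODE vM1, a build not stated to be the authors' (Python 3.11.15, numpy 2.4.6, numba 0.67.0, pandas 2.3.3, scipy 1.17.1). In transcripts that differ, CDS had priority over 3' UTR and that over 5' UTR. Log2 ratios use a pseudocount of 0.5 and genes with at least 20 reads. The intervals are exact Clopper-Pearson, Poisson or conditional binomial ones at 95%. Reads carry no molecular identifiers and are not independent molecules. TMM factors came from edgeR 4.0.16 and median-of-ratios factors from DESeq2 1.42.0.

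The choice of genes covered the 10 with most reads, 5 per region and the 10 with most starts. It also covered up to 8 per direction past the rule and up to 4 per list. Not every gene so chosen is described here. Ntrk2, Snrpb, Krcc1, Elof1, Tlcd1, Glul and Esrra, and list members at 0, were named after their values were seen. The members and lists were chosen with earlier results of these data known. In simulated counts for the 19 genes the rule called 39.2% of 2-fold, 78.9% of 3-fold and 2.09% of unchanged genes. These counts had Poisson error only, with no variation between cultures or libraries and with the scaling known. The shares are therefore not error rates for the data. The search found the right matches for all 5998 simulated inserts. Alternatives were other scalings, read minimums, lengths, mismatch rules and inserts left out. Leaving out Lars2, a 10-fold neighbour rule and 1 transcript per gene were chosen after seeing the data.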

Additional observations from a re-analysis of the deposited data

How the results depend on the processing

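No paired analysis was possible because siSrf1 and siSrf2 were sequenced as 1 library each, and no replicate could be left out. The ratio of the exon inserts, siSrf2 over siSrf1, stayed above 1 in all 13 alternatives. It was 2.49 scaled to hairpin inserts, 2.66 for 20 to 24 nt, 1.29 without inserts that had 1 read over both libraries, 2.70 without inserts that have a further match at 1 mismatch, 2.53 with each distinct insert counted 1 time per library, 2.18 without the most-read insert of each gene and 2.49 without Lars2. The shares of CDS, 3' UTR and 5' UTR over both libraries were 48.2%, 24.2% and 22.9%. CDS and 3' UTR were 40.6% and 29.8% for inserts with the same region in every transcript. The 3 shares were 50.4%, 21.3% and 23.7% with distinct inserts, 47.2%, 27.9% and 20.6% without the most-read insert of each gene, and 51.0%, 26.9% and 17.6% for 20 to 24 nt. Without Lars2 they were 50.5%, 20.6% and 23.996%, and without Lars2 on 1 transcript per gene 51.7%, 23.0% and 25.4%. The share of 5' UTR reads thus depends on the lengths kept. Of the genes with 20 reads, 7 were higher in siSrf2 and 0 in siSrf1. The counts were 1 and 3 with TMM factors, 1 and 8 scaled to the exon inserts, 1 and 2 with median-of-ratios factors, and 1 and 1 without the most-read insert of each gene (8 genes tested). A minimum of 10 reads gave 14 higher in siSrf2 of 59, and a minimum of 50 gave 1 of 5. Leaving out inserts with a further match at 1 mismatch left 2 genes and 0 calls. Of the 7 calls, 0 held under every alternative run for single genes. Dnmt3a kept log2 ratios of 1.88 to 3.60 with lower limits above 0, and lost its call where 17 and 13 reads remained, under the minimum of 20. In all, 6 of 18 named genes changed sign under at least 1. The sense share was 80.6%, and 79.8% without Lars2. Junction reads in sense were 311, and 197 with an 8 nt overhang. The share near a frequent or annotated small RNA was 2.80%, and 2.31% at 100 times as frequent. The causes of these shifts were not tested. With 58.6% of genes at 1 read, depth limits nearly all comparisons of single genes.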
